A study of Mus musculus with 6 samples.

Results

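Genes that mark B lymphocytes were described in RNA of mouse lung endothelial cells (ECs): Cd79a and Cd79b, Ms4a1, Cd22, Fcer2a, Blk and Pax5. These 7 members were taken by name from the 24063 gene symbols of the count tables, and the counts of each symbol were summed over its transcripts. The ECs were isolated with anti-CD31 conjugated magnetic beads from lungs of male C57BL6 mice, with no genetic alteration named for them, as 3 libraries from sham-operated mice (thoracotomy alone) and 3 libraries from mice 7 days after unilateral pneumonectomy (PNX), in which the left lung was removed. Each library was a pool of 2 mice; the labels give an age of 8 weeks, whereas the methods give an older age at surgery. A bead-selected fraction holds the cells that the beads retained, and CD31 is also known on leukocytes, so the beads do not by themselves exclude lymphocytes.

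B cells recognise antigen through a membrane immunoglobulin that signals through the paired chains CD79a and CD79b, whose cytoplasmic tails are phosphorylated by SRC family kinases such as BLK. CD22 dampens this signal, CD20 (the product of Ms4a1) and CD23 (the product of Fcer2a, the low-affinity IgE receptor) are surface proteins of mature B cells, and PAX5 is the transcription factor that holds cells in the B lineage. In the lung, B cells are found in the circulation, in the interstitium and in lymphoid aggregates near airways and vessels.

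The total count was 29526989 to 81282871 per library and was lowest in replicate 3 of each group. Replicates 1 and 2 of both groups are marked in the labels as taken over from a previous submission; they are called the earlier deposit, and replicate 3 the later deposit. Replicates 1 and 2 differed by little more than counting error (chi-square per degree of freedom 1.75 in sham and 1.57 in PNX, against 67.9 to 86.4 for pairs with replicate 3). Each such pair was therefore summed into a single sample, so n = 2 samples in each group. Where the deposit is not part of the fit, p-values from these samples measure the spread between the samples of a group. The endothelial markers were abundant in every library, with Pecam1, which encodes CD31, at 769 to 955 TPM, the length-scaled abundance relative to the whole library, and the junction gene Cdh5 at 799 to 962 TPM.

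All 7 genes were read at a lower level after PNX than after sham operation in both deposits, with a median log2 fold change of -0.91 over the 7 genes against -0.01 over the 16598 genes tested. In 5 genes (Cd79a, Cd79b, Ms4a1, Pax5 and Fcer2a) every PNX library lay below every sham library, beside 18.1% of 16261 genes for which this was so. In Blk and Cd22 the groups overlapped, and replicate 3 was high in both groups. In bulk RNA, fewer cells of a type and less RNA per cell cannot be told apart.

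**Figure D1:**
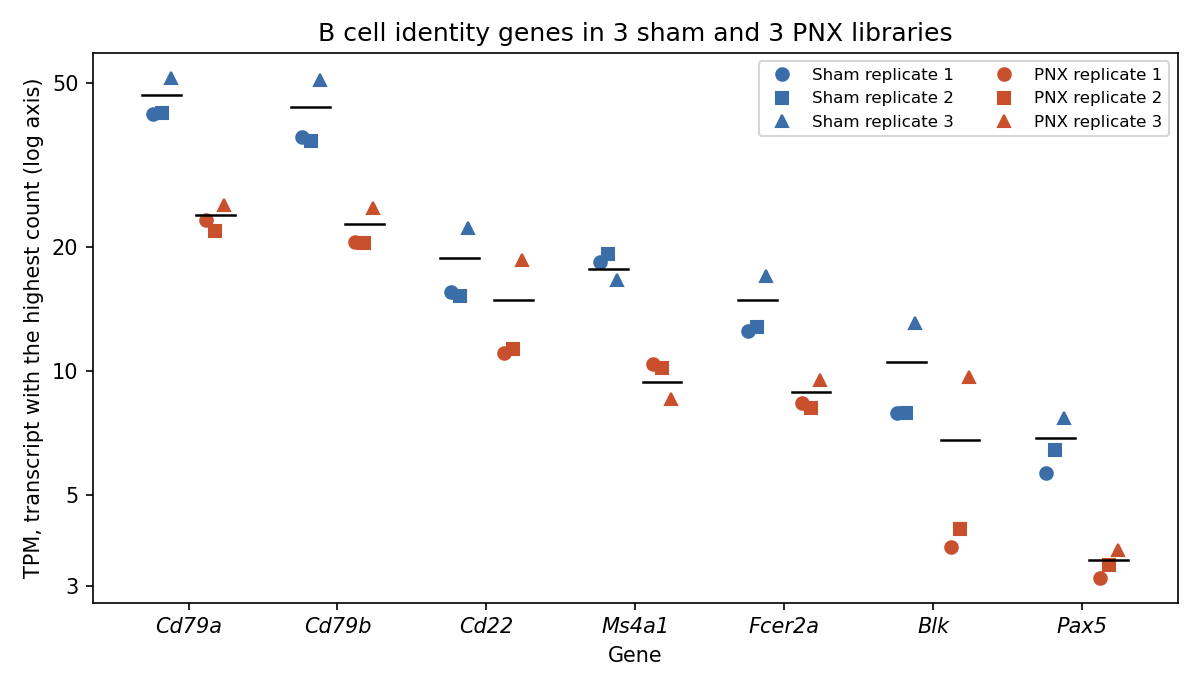
TPM of the transcript with the highest count (log axis) for each of the 7 genes in the 6 libraries, with sham in blue, PNX in red and a different symbol for each replicate; bars are group means over n = 2 samples, the earlier one being the mean of replicates 1 and 2. Cd79a and Cd79b sit highest, Pax5 lowest, and only Blk and Cd22 have a PNX library above a sham library.

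Levels of different genes were compared in TPM, which is scaled by transcript length. In sham, Cd79a was at 46.8 ± 6.58 TPM and Cd79b at 43.6 ± 10.03 TPM (SD, n = 2 samples), which differed by less than the spread between samples. Cd22, Ms4a1 and Fcer2a followed at 18.8 ± 4.89, 17.7 ± 1.53 and 14.8 ± 3.06 TPM, also within their spread of each other. Blk was at 10.5 ± 3.65 TPM and Pax5 at 6.84 ± 1.16 TPM, a difference close to the SD of Blk. These spreads ignore that the genes were read in the same libraries. Within every library of both groups, Cd79a lay above Cd79b, Cd22 above Fcer2a and Blk above Pax5. After PNX the order was Cd79a, Cd79b, Cd22, Ms4a1, Fcer2a, Blk and Pax5, as in sham. The 7 genes together reached 139, 140 and 179 TPM in sham replicates 1, 2 and 3, and 80.4, 79.4 and 99.9 TPM in PNX replicates 1, 2 and 3. The summed level was thus lower in every PNX library than in every sham library.

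Cd79a, one signalling chain of the B cell receptor, is annotated at positions 24897381 to 24902197 of chromosome 7, plus strand (GRCm38, GENCODE), where no other annotated gene overlaps it. It had 1771, 1590 and 922 counts in the sham libraries (replicates 1, 2 and 3, as in all such series) and 925, 768 and 394 in the PNX libraries. Relative to transcript length and library, these were 41.9, 42.3 and 51.4 TPM in sham and 23.2, 21.8 and 25.2 TPM after PNX, and the groups did not overlap. The level after PNX was 0.548 times that in sham within the earlier deposit (exact 95% interval 0.517 to 0.581, counting error only) and 0.485 times within the later one (0.430 to 0.547).

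Cd79b, the partner chain, lies on the minus strand of chromosome 11 from 106311341 to 106314762 with no overlapping gene. It was counted 1412, 1223 and 821 times in sham and 739, 650 and 350 times in PNX, or 36.1 to 50.7 TPM against 20.5 to 24.8 TPM. The groups were again apart, and the PNX to sham ratio was 0.574 in the earlier deposit (0.537 to 0.612) and 0.484 in the later one (0.426 to 0.549). The ratio of Cd79a to Cd79b in TPM was 1.13, 1.17 and 1.01 in sham and 1.13, 1.07 and 1.02 after PNX. The 2 chains, which form a heterodimer, thus kept a ratio near 1 in all 6 libraries.

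Ms4a1, which encodes CD20, lies on the minus strand of chromosome 19 from 11249675 to 11266241; an antisense gene there shares no exon base with it. The sham libraries held 1199, 1121 and 462 counts of it, and the PNX libraries 640, 554 and 206. In TPM these were 18.3, 19.2 and 16.6 in sham and 10.4, 10.2 and 8.51 after PNX, with no overlap. The PNX to sham ratio was 0.560 (0.522 to 0.601) in the earlier and 0.506 (0.428 to 0.598) in the later deposit. Ms4a1 was the one gene of the 7 that was lower in the later deposit than in the earlier one, by a ratio of 0.897 in sham (0.810 to 0.992) and 0.811 in PNX (0.696 to 0.941).

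Pax5, the B lineage transcription factor, lies on the minus strand of chromosome 4 from 44524757 to 44710487. Of 4 annotated genes that overlap it, Gm12462 and 5730488B01Rik on the opposite strand share 125 and 636 exon bases with it, and no source says that reads were counted by strand, so its count is uncertain to that extent. It was the least counted of the 7, with 217, 219 and 125 counts in the sham libraries and 114, 108 and 52 in the PNX libraries. The PNX libraries, at 3.14 to 3.66 TPM, lay below the sham libraries, at 5.65 to 7.66 TPM. The ratio was 0.554 (0.469 to 0.653) in the earlier and 0.472 (0.335 to 0.658) in the later deposit, with the widest counting interval of the 7 genes.

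Fcer2a, which encodes CD23, lies on the minus strand of chromosome 8 from 3681737 to 3694175 with no overlapping gene. The files list 7 transcripts of it with nearly equal counts in each library, so its summed count is several times that of any 1 transcript; ratios here use the transcript with the highest total. Summed, sham gave 6093, 5564 and 3549 counts, whereas PNX gave 3872, 3321 and 1716. In TPM of the highest transcript, sham lay at 12.5 to 17.0 and PNX at 8.12 to 9.48, without overlap. The ratio was 0.668 (0.618 to 0.722) in the earlier and 0.552 (0.473 to 0.644) in the later deposit.

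Blk, a SRC family kinase of B cells that is also known in plasmacytoid dendritic cells, lies on the minus strand of chromosome 14 from 63372836 to 63417037 with no overlapping gene. Its counts were 623, 554 and 437 in the sham libraries, against 277, 271 and 281 in the PNX libraries. PNX replicate 3 was at 9.65 TPM, above sham replicates 1 and 2, both at 7.91 TPM, although below sham replicate 3 at 13.1 TPM. PNX replicates 1 and 2 were at 3.73 and 4.13 TPM. The PNX to sham ratio was 0.507 (0.457 to 0.561) in the earlier deposit and 0.730 (0.626 to 0.850) in the later one, and these counting intervals did not overlap; with 1 sample per group in each deposit, the difference between deposits was not tested. The later deposit held more Blk than the earlier one, by 1.67 times in sham (1.495 to 1.87) and 2.41 times in PNX (2.08 to 2.79), the largest such ratios among the 7 genes.

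Cd22, the inhibitory lectin receptor, lies on the minus strand of chromosome 7 from 30865402 to 30880342, where the antisense gene Gm29439 shares 479 exon bases with it, so its count is uncertain in the same way as that of Pax5. Its 4 transcripts had nearly equal counts. Their sum was 8141, 7107 and 4972 counts in the sham libraries, against 5472, 4958 and 3611 in the PNX libraries. Replicates 1 and 2 were at 15.5 and 15.2 TPM in sham and 11.0 and 11.3 TPM in PNX, whereas PNX replicate 3 at 18.5 TPM exceeded both of these sham libraries and sham replicate 3 was at 22.3 TPM. The ratio was 0.743 (0.707 to 0.781) in the earlier and 0.823 (0.755 to 0.897) in the later deposit, the highest ratio of the 7 genes in each deposit.

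**Figure D2:**
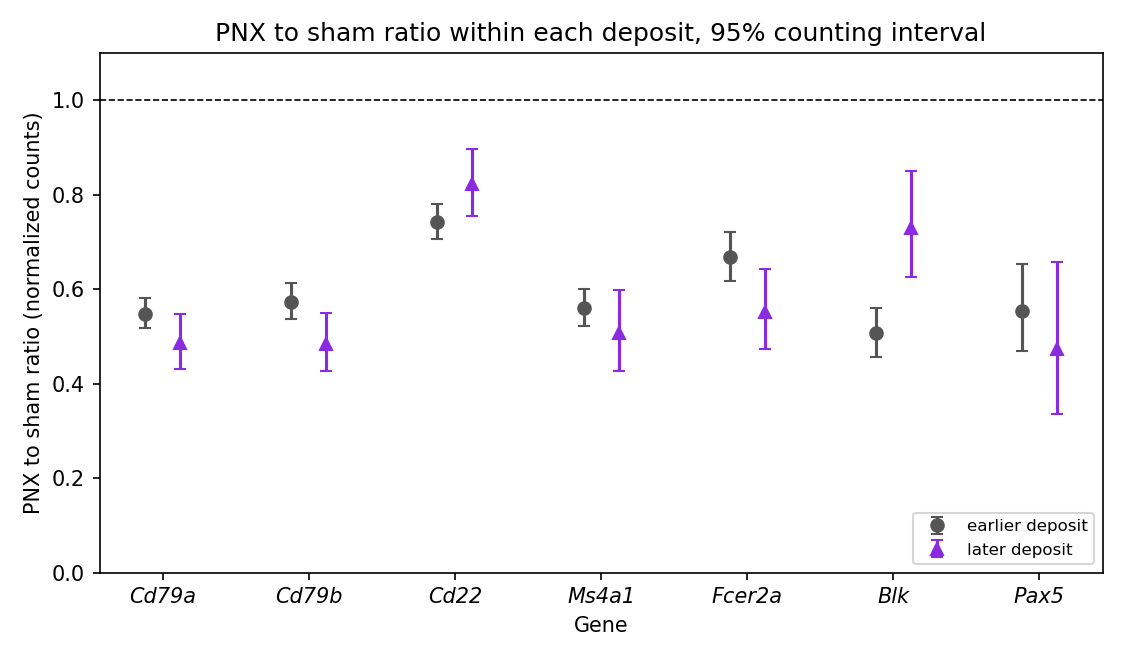
PNX to sham ratio of normalized counts of the highest transcript for each of the 7 genes, within the earlier deposit (grey circles, replicates 1 and 2 summed) and the later deposit (purple triangles, replicate 3); bars are exact 95% intervals for counting error only and the dashed line marks equal levels. All 14 intervals lie below 1; the ratios run from 0.472 for Pax5 to 0.823 for Cd22 and the interval limits from 0.335 to 0.897 for the same genes, all in the later deposit.

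The genes were compared with each other through their ratio to Cd79a in TPM, which is the same on every scaling of the libraries. Pax5 stayed at 0.135 to 0.151 of Cd79a in sham and 0.135 to 0.155 after PNX, so the groups overlapped almost fully. Ms4a1 stood at 0.446 and 0.323 of Cd79a in the earlier and later sham samples and at 0.456 and 0.337 in the PNX samples, so the deposits were further apart than the groups. Fcer2a was at 0.300 and 0.330 in sham and 0.366 and 0.376 after PNX. Cd22 was at 0.365 and 0.433 in sham and 0.496 and 0.734 after PNX. For Fcer2a and Cd22 each PNX value therefore exceeded each sham value; with 2 samples against 2, a two-sided exact permutation test cannot go below p = 0.333, and 13 ratios were computed in all. For Blk the ratio was 0.188 and 0.254 in sham and 0.174 and 0.382 after PNX, and the groups overlapped.

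**Figure D3:**
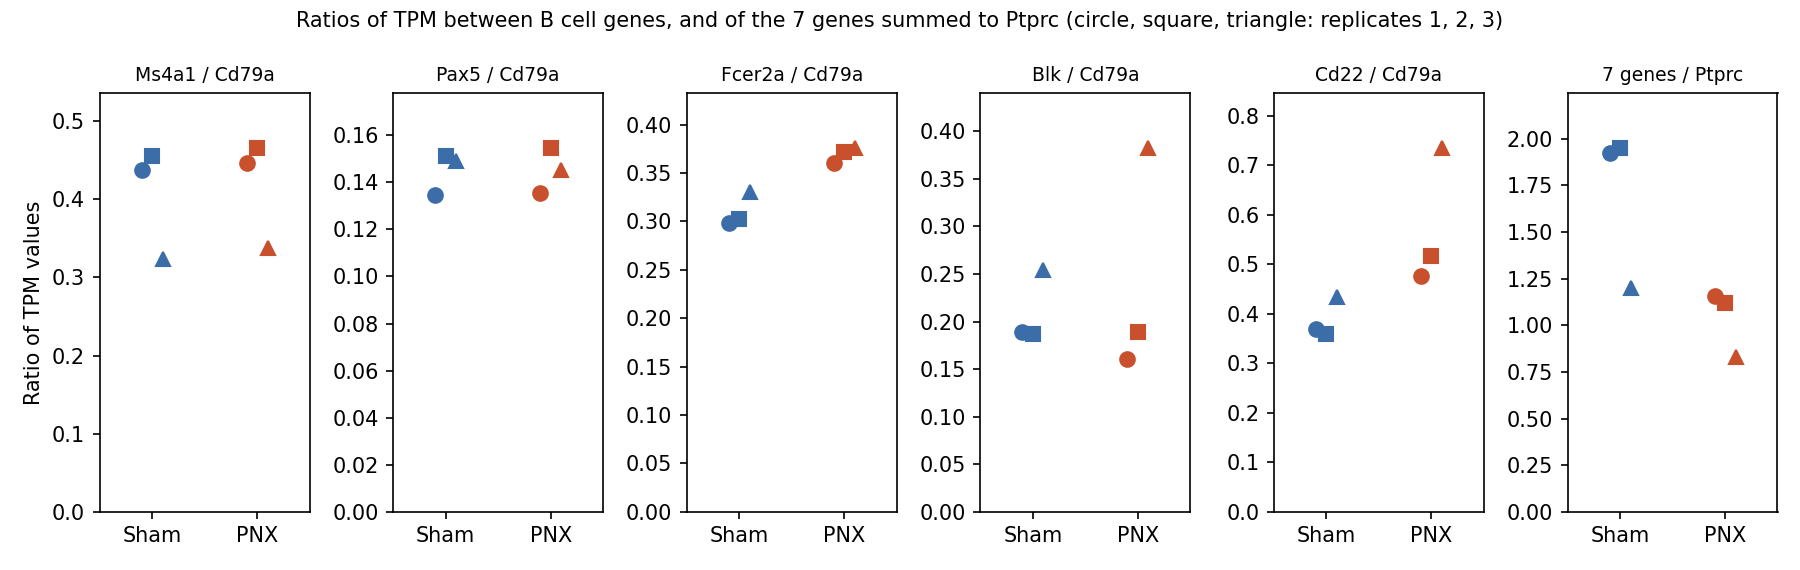
Ratio of TPM values in each library (sham blue, PNX red; circle, square and triangle for replicates 1, 2 and 3) for 5 genes over Cd79a and, at the right, for the 7 genes summed over Ptprc; each panel has its own axis from 0. The groups overlap for Ms4a1 and Pax5, Cd22 and Fcer2a are higher relative to Cd79a after PNX, and the 7 genes summed are lower relative to Ptprc in every PNX library than in every sham library.

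The start regions of Cd79a and Cd22 are shown because Cd79a was the most abundant of the 7 genes and Cd22 the one with the highest PNX to sham ratio; the sequence table held promoters of 4 of the 7, with 6 promoters in all. Each sequence runs 5′ to 3′ on the strand of the gene from 250 bases before to 50 bases after an annotated start, from RefSeq on GRCm38.p6, at chr7:24897247-24897546 on the plus strand for Cd79a and chr7:30878979-30879278 on the minus strand for Cd22. Capitals mark matches on either strand to the E-box CAGGTG, which E2A proteins can bind, and to CCCNNGGG, the core recognised by EBF1, a factor that acts with PAX5 in B cells.
Cd79a: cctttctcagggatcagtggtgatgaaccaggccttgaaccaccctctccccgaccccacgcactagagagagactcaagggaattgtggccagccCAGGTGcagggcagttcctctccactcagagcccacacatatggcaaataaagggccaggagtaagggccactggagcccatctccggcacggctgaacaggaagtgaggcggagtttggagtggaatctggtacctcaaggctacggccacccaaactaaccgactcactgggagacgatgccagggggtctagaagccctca
Cd22: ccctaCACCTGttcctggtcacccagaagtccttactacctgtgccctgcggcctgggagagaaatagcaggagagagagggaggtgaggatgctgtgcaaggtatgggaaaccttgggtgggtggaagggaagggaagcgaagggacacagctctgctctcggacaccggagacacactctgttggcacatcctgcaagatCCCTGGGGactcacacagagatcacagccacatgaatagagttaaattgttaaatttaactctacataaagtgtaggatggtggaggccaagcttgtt
The E-box lay 154 bases before the start in Cd79a and 245 bases before it in Cd22, and it was found in 3 of the 6 member promoters and in 20.2% of 32851 promoters of the same length. The EBF1 core lay 48 bases before the RefSeq start of Cd22 used here and was found in 1 of the 6 and in 13.7% of all promoters. The GENCODE span of Cd22 given above begins further upstream, at 30880342 on the minus strand, so the whole window shown lies inside that span. The RefSeq start of Cd79a also lies inside its GENCODE span, which begins at 24897381. Of other motifs searched on both strands, ATGCAAA, the core of the octamer, was in 0 of the 6 and 4.63% of all, TATAAA in 1 and 13.6%, and AGGAAG, an ETS core, in 3 and 35.4%. A match is a description of the letters and does not show that a factor binds there.

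The difference between PNX and sham was tested across all genes in edgeR (quasi-likelihood, Benjamini-Hochberg adjustment). The thresholds were those of the study, 0.01 for the adjusted p together with a log2 fold change over 1 in either direction. With the 4 samples and no block, 0 of 7 genes passed, where 0% of the 16598 genes tested were called. At an unadjusted p under 0.05 there were 5 of the 7, all lower, beside 4.96% of all genes that were lower at that level. On the same samples DESeq2 called 0 of the 7, where it called 0.494% of the genes tested lower, and limma-voom called 0 of the 7, where it called 0% of them lower. Where a fit called no gene at all, its 0 of 7 says nothing particular to these genes. With the 6 libraries taken as separate replicates, 0 of 7 passed in edgeR, where 0.24% of genes were called lower, and 0 of 7 in DESeq2, where 1.47% were. The fitted log2 fold change was -0.98 for Pax5 (SE 0.28, edgeR adjusted p = 0.264), -0.96 for Cd79a (SE 0.17, adjusted p = 0.132), -0.94 for Cd79b (SE 0.23, adjusted p = 0.21) and -0.91 for Ms4a1 (SE 0.19, adjusted p = 0.171). For Fcer2a it was -0.74 (SE 0.20, adjusted p = 0.241), for Blk -0.64 (SE 0.51, adjusted p = 0.704) and for Cd22 -0.34 (SE 0.31, adjusted p = 0.758). All 7 values lay inside the fold limit of the study.

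The samples are paired by deposit, and once the deposit entered the fit as a replicate block, less spread was left over: the biological coefficient of variation was 0.0973 in place of 0.236. In this fit 0 of 7 genes passed both thresholds, where 1.23% of all genes were called lower; all 7 missed the fold limit, and Pax5, Blk and Cd22 also missed the limit on the adjusted p. At an adjusted p under 0.05 with no limit on the fold, a rule chosen after the values were seen, all 7 genes were lower, where 10.1% of the genes tested were called lower and 11.5% higher. At an adjusted p under 0.01, 4 of the 7 passed, beside 3.32% of all genes that were lower at that level. These were Cd79a, which fell by 0.95 on the log2 scale (SE 0.10, edgeR adjusted p = 7.98e-04), Cd79b, which fell by 0.92 (SE 0.11, adjusted p = 0.00139), Ms4a1, which fell by 0.91 (SE 0.11, adjusted p = 0.00193), and Fcer2a, which fell by 0.72 (SE 0.09, adjusted p = 0.0021). Pax5 fell by 0.95 (SE 0.20, adjusted p = 0.0149), Blk by 0.74 (SE 0.16, adjusted p = 0.0196) and Cd22 by 0.36 (SE 0.09, adjusted p = 0.0262). This fit has 1 residual degree of freedom. Single libraries weighed most on Blk and Cd22: with no block and without PNX replicate 3 their log2 fold changes were -1.40 and -0.74, and without sham replicate 3 they were -0.24 and -0.04. Without PNX replicates 1 and 2 they were -0.11 (SE 0.39) and -0.02 (SE 0.30), well within their errors of 0. Each of these fits leaves a group with a single deposit, and both genes were higher in the later deposit. Their values therefore mix the difference between deposits with that between groups. With the block, leaving out replicate 1 or 2 of either group gave -0.69 to -0.76 for Blk and -0.35 to -0.37 for Cd22.

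Other genes of B cells were counted from lists chosen with earlier results of these data known. With no block 0 genes of these 6 lists passed the thresholds of the study in edgeR; the counts in the next sentences are at an adjusted p under 0.05 in the blocked fit, to be read against the 10.1% of all genes called lower and 11.5% called higher. Of 7 receptor and co-receptor genes tested, 4 were lower and 0 higher. Fcrla, a Fc receptor-like protein of B cells, had the lowest fitted log2 fold change of that list with no block (-0.88) and the tetraspanin Cd81, which is widely expressed and its most abundant gene, the highest (0.27).

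Of 10 transcription factors of B cells, 6 were lower and 0 higher, from -0.77 for Spib to 0.09 for Tcf3, which is also the most abundant and is not restricted to B cells. Of 10 homing and survival receptors, 7 were lower and 1 higher. Ccr7, the receptor that guides lymphocytes to lymph nodes, had the lowest value there (-1.07, and -1.15 with the block, where it passed the thresholds of the study at an edgeR adjusted p of 7.98e-04), and Cxcr5, the follicle-homing receptor, passed them there too at -1.002 (adjusted p = 0.00206). Cd40, the most abundant of them, had the highest value (0.42). Of 10 signalling genes downstream of the receptor, 2 were lower and 0 higher, with Bank1 lowest (-0.61), Blnk highest (0.24) and Lyn, a kinase of many leukocytes, the most abundant (0.10). Their median log2 fold change was -0.03, against -0.66 for the co-receptors, -0.43 for the transcription factors and -0.49 for the homing receptors.

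Genes of the first and last stages of B cell development were counted in the same way. Of 8 plasma cell and germinal centre genes tested, 0 were lower and 0 higher, with a median log2 fold change of -0.19 and values from -0.24 for Sdc1 to -0.09 for Prdm1 among those with a mean count of at least 50; Xbp1, the most abundant, was at -0.17. Of 5 precursor genes tested, 4 were lower and 0 higher, with a median of -1.23. They were scarce: Dntt, which adds nucleotides during receptor rearrangement, had 1.04 and 2.24 CPM (counts relative to the scaled library total) in the sham samples against 0.526 and 0.745 CPM in the PNX samples. Rag1, the recombinase gene, had 0.606 and 0.589 CPM against 0.0995 and 0.136 CPM and fell by 2.45 on the log2 scale in the blocked fit (SE 0.42, edgeR adjusted p = 0.00749). Il7r, the most abundant and also a T cell gene, was at -0.76. Rag2 and Igll1, left untested for low counts, had at most 2 counts in any library. Counts from bulk RNA do not tell from which cells the RNA of Rag1, Dntt or Il7r came.

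**Figure D4:**
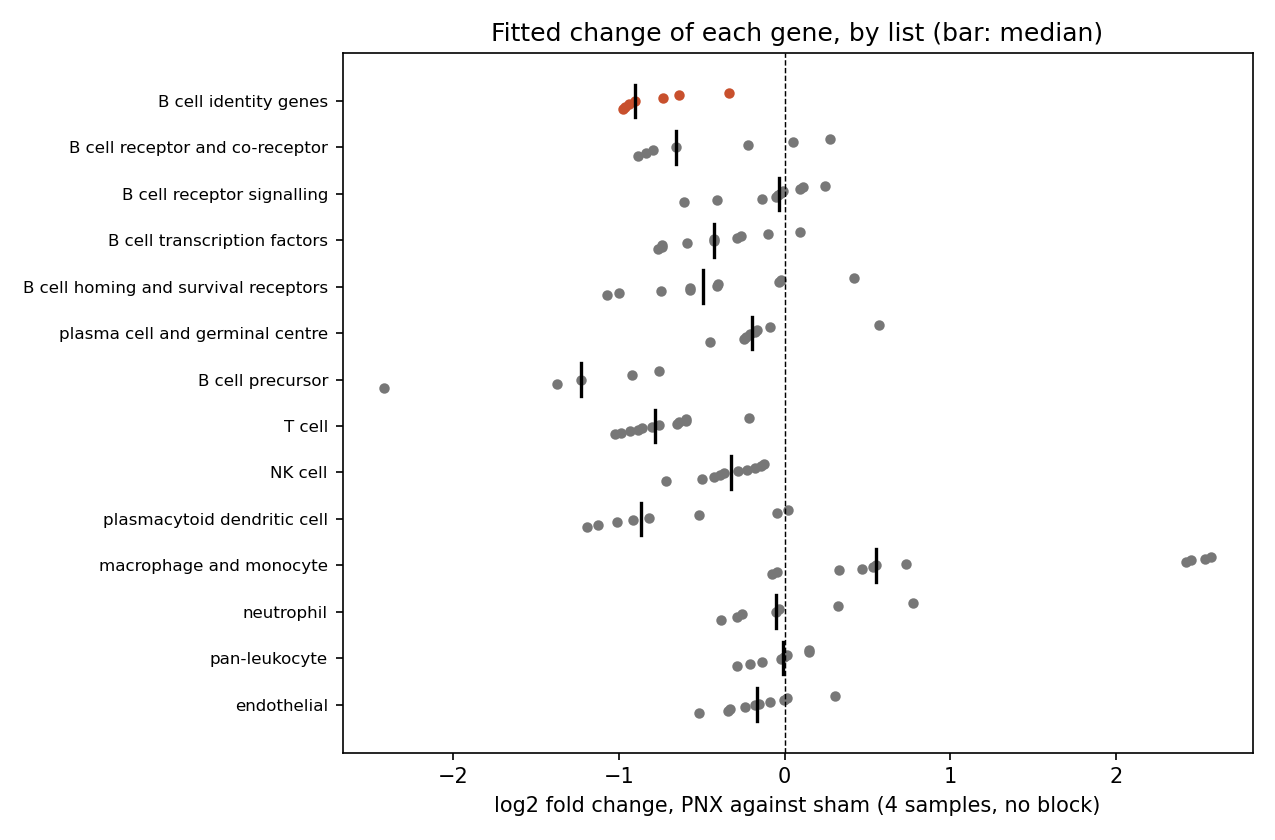
Fitted log2 fold change of each tested gene, PNX against sham, in the fit with 4 samples and no block, with 1 line per list; red points are the 7 B cell identity genes, grey points are genes of the other lists and black bars are medians. The B cell identity genes lie from -0.98 to -0.34, the pan-leukocyte genes around 0 and the macrophage and monocyte genes mostly above 0.

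Markers of the other cell types that the preparation could hold moved as follows, and their part in the result was not tested. Genes counted as lower or higher here are again those at an edgeR adjusted p under 0.05 in the blocked fit. At that level 10.1% of all genes were lower and 11.5% higher. The log2 fold changes and medians are from the fit with no block. Of 12 T cell genes 10 were lower and 0 higher (median log2 fold change -0.78, from -1.02 for Cd8b1 to -0.22 for Cd4, with Cd247, the most abundant, at -0.59), and their summed level was 112 and 191 CPM in sham and 65.6 and 128 CPM after PNX. Of 8 plasmacytoid dendritic cell genes 4 were lower and 0 higher (median -0.87, from -1.19 for Cox6a2 to 0.02 for Bst2, with Tcf4, the most abundant, at -0.04), a list in which Ly6d is also a B cell gene, with a summed level of 458 and 386 CPM against 419 and 379 CPM. Of 10 NK cell genes 1 was lower and 0 higher (median -0.32, from -0.72 for Klrd1 to -0.12 for Klrb1c, with Gzma at -0.18), summed to 36.0 and 39.1 CPM against 32.0 and 28.1 CPM. Of 11 macrophage and monocyte genes 0 were lower and 9 higher (median 0.55, from -0.08 for Ly6c2 to 2.57 for C1qc, with Lyz2 at -0.05), summed to 2411 and 4395 CPM against 3254 and 4434 CPM. The medians of the T cell, plasmacytoid dendritic cell and NK cell lists were thus negative and that of the macrophage list positive. The NK cell count was near the share of all genes called lower. The neutrophil and endothelial medians were also below 0, at -0.05 and -0.16. Of 7 neutrophil genes 0 were lower and 1 higher, from -0.38 for Cxcr2 to 0.77 for Camp, with Csf3r at -0.03. Of 10 endothelial genes 1 was lower and 0 higher, from -0.52 for Tek to 0.30 for Emcn, with Pecam1 at 0.01.

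Among 8 pan-leukocyte genes 0 were called lower and 0 higher in the blocked fit at the same level. With no block their median log2 fold change was -0.01, from -0.29 for Coro1a to 0.15 for Arhgdib. Ptprc, which encodes CD45 and was the most abundant of them, was at 72.3, 71.8 and 149 TPM in sham replicates 1, 2 and 3 and 69.5, 70.9 and 120 TPM in PNX replicates 1, 2 and 3. The 7 members summed stood at 1.94 and 1.202 times Ptprc in the earlier and later sham samples and at 1.14 and 0.832 times Ptprc in the PNX samples, so that each PNX sample lay below both sham samples. Relative to Pecam1 the sum was 0.146 and 0.233 in sham and 0.0862 and 0.124 after PNX, again without overlap. Relative to Cd3d, a chain of the T cell receptor complex, it was 19.9 and 11.9 in sham and 21.3 and 13.5 after PNX, where the deposits differed and the groups overlapped. Of the other T cell receptor chains, Cd3e gave 28.5 and 12.3 in sham and 26.7 and 10.6 after PNX.

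The pattern over the 4 samples was described by centring the log2 CPM of each gene on its own mean and taking the median of the 7. Cd79b, Pax5, Cd79a and Fcer2a lay within a root mean square difference of 0.0433 to 0.0747 of this median profile, whereas Ms4a1, Cd22 and Blk lay at 0.269, 0.315 and 0.398. Of 14283 other genes with a mean count of at least 50, those nearest to the profile were Lrrc9, Efcab1, Lrrc23, AW549542, Glb1l2, Klf5, Nxph3, H2-Ob, Faim3 and Lrrc10b, at 0.0349 to 0.0773. None of these nearest genes was on any of the lists used here, so genes outside the lists shared the profile. The lists do not hold every gene of B cells, so this does not say whether B cell genes are among the nearest. Of the listed genes, Cxcr5 ranked 25. Likeness over 4 samples is a description of these samples, which share deposits and scaling.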

How the data were processed

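Per the labels and the methods, the authors sequenced stranded, paired-end mRNA libraries, aligned them to mm10 (the submitters' processing notes name STAR) and deposited, per library, the count of each of 33068 RefSeq transcripts with FPKM and TPM. How reads were assigned, and from which annotation release, is not given in the sources used here. FPKM, deposited by the authors, was not used; the deposited TPM served for levels of the transcript with the highest total count and entered no test. Totals of deposited counts may hold reads that were counted on several transcripts, so intervals, which cover counting error only, use 1 transcript.

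Samples were grouped by their titles. Counts were summed per symbol and, within the earlier deposit, over replicates 1 and 2. Members, lists and tests were chosen with earlier results of these data known. The test was glmQLFTest of edgeR 4.0.16 (R 4.3.3) after filterByExpr and TMM scaling, with Benjamini-Hochberg adjustment, and DESeq2 1.42.0 and limma 3.58.1 (voom) served as alternatives. On simulated data the fits returned the fold changes put in, but at the thresholds of the study edgeR without the block and limma-voom called none of the changed genes, so a count of 0 from either says nothing about the absence of a change. The SE is the log2 fold change divided by the square root of F. CPM values use TMM-scaled libraries. Intervals are 95% Clopper-Pearson intervals of the share of counts from PNX (or from the later deposit). The pairing comes from the labels, which mark replicates 1 and 2 of both groups as re-used; the later minus earlier differences of the sham and PNX groups had a Pearson's r of 0.725 and a Spearman's rho of 0.739 across 14290 genes, which are not independent replicates. Named from the 13 lists were, per list, the genes with the highest and lowest log2 fold change at a mean count of at least 50 and the most abundant gene; Cxcr5, Rag1, Ly6d and the ratios to Ptprc, Pecam1, Cd3d and Cd3e were chosen after their values were seen. Likeness used log2(CPM + 0.05). The listed genes Ighm, Ighd, Igkc, Jchain, Adgre1 and Ly6g were not analysed here, and single values of some other listed genes are not reported here.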

Additional observations from a re-analysis of the deposited data

How the results depend on the processing

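In the alternatives run, the log2 fold change of each of the 7 genes stayed below 0, but for Cd22 and Blk it was as near to 0 as -0.02 (SE 0.30) and -0.11 (SE 0.39) without PNX replicates 1 and 2. That setting leaves PNX with the later deposit alone, so its values mix the difference between deposits with that between groups. None of the 7 passed an adjusted p under 0.01 together with a log2 fold change beyond 1. The count of all genes called, 0 in edgeR with 4 samples and no block (2076 at an unadjusted p under 0.05), was 0 with limma-voom, with the other scalings and filters, with the highest transcript and with an adjusted p under 0.05, but 572 (82 of them lower) with DESeq2 on the 4 samples, 849 with the replicate block, 409 with the 6 libraries as separate replicates in edgeR, 921 with these in DESeq2 and 1104 with these and the replicate block. With the replicate block, an adjusted p under 0.05 and no fold limit, a setting added after the data were seen, 7 of the 7 genes were called and 3584 genes in all; the 7 were again called among 3196 genes when scaled by the size factors of DESeq2, 3360 by the upper quartile, 3259 by library size and 3600 with the highest transcript. Leaving out single libraries, with or without the block, gave 0 to 3552 genes called and 0 to 7 members called, 7 in each blocked fit at that wider threshold. Without sham replicate 1 or 2 or PNX replicate 1 or 2, in that order, the replicate block gave 671, 668, 485 and 863 genes at the thresholds of the study and 3098, 3421, 2822 and 3552 at the wider one. With no block, 2 genes were called without PNX replicate 3 and 0 without any other single library. The median log2 fold change of the 7 genes lay between -1.04 (without PNX replicate 3) and -0.68 (without sham replicate 3), against -0.91. With the 6 libraries in DESeq2, 5 of the 7 had an adjusted p of 4.11e-10 (Ms4a1), 3.81e-10 (Cd79a), 4.49e-05 (Cd79b), 7.03e-05 (Pax5) and 5.85e-04 (Fcer2a), against 0.243 for Blk and 0.395 for Cd22; that fit counts the nearly identical replicates 1 and 2 as separate. At the thresholds of the study the block changed no call on the 7 genes. Depth limits Pax5 most, at 52 counts in PNX replicate 3.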
